A study of Mus musculus with 6 samples.

Results

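The valine tRNA genes are the nuclear genes for the transfer RNAs that carry valine to the ribosome. They were taken as every row of the count tables whose name begins with tRNA-Val-. This gave 24 genes, of 471 tRNA genes and 16310 annotated non-coding RNAs in all. By anticodon, the triplet that pairs with the codon, they fall into 8 AAC, 12 CAC, 1 GAC and 3 TAC genes. By isodecoder, the number that groups genes with the same mature sequence, they fall into 16 isodecoders, of 279 for all tRNAs.

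Reads came from 6 small RNA libraries of exosomes, small membrane vesicles shed into the culture medium. Of these, 3 were from cultured mouse dermal fibroblasts (Fb) and 3 from cultured mouse epidermal stem cells (ESC), all from dorsal skin and kept for 0 to 1 passages. Per the labels' protocols, the Fb were isolated from db/db mice, which carry a defective leptin receptor and become obese and diabetic, at an age of 14 weeks. They grew in medium with fetal bovine serum and were moved to serum-free medium for 2 days before vesicles were collected. The ESC were the rapidly adhering epidermal cells of C57BL/6 mice in the resting hair phase, at an age of 3 weeks, in a keratinocyte medium free of serum. The strain label nevertheless reads C57BL/6 throughout. Cell type, donor strain, age and medium changed together, so their parts in any difference below cannot be told apart. The labels call the libraries biological replicates but tie none to an animal, so that p-values speak of variation among libraries, which may be technical.

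A tRNA is charged with its amino acid by a matching synthetase and reads codons through its anticodon. The AAC anticodon, whose first base is edited to inosine, reads several valine codons, while CAC and TAC read mainly those that end in G and A. tRNAs are transcribed by RNA polymerase III from promoter elements inside the gene, the A and B boxes. Under stress, or outside cells, tRNAs are often cut near the anticodon, and fragments of glycine, glutamate and valine tRNAs are known as frequent small RNAs of vesicles and serum. The tables give a total per gene and no position within it, so fragments and whole tRNAs were counted together.

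The sequence of a CAC gene shows the anticodon and the B box named above. RefSeq lists 22 mouse valine tRNA genes (8 AAC, 11 CAC and 3 TAC), each 72 to 73 bases long, of which 5 AAC and 5 CAC genes lie on chromosome 13 between positions 22015791 and 23446214 of GRCm38.p6. The gene n-TVcac9, at chr13:23446142-23446214 on the minus strand, was read from RefSeq's promoter windows of that build. It is given 5′ to 3′ as the only valine tRNA gene that those windows held, and the capitals mark the anticodon.
n-TVcac9: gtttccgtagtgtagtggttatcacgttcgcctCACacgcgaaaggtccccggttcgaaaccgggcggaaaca
The anticodon stands at bases 34 to 36 of 73, the B box motif GGTTCGAAACC at bases 52 to 62, and 56.2% of the bases are G or C. RefSeq's gene names are not paired with those of the tables, so this sequence is not assigned to a single isodecoder, and the tables give no positions for the other genes.

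Reads assigned to annotated RNAs numbered 6914504 to 8691350 in Fb libraries and 9894485 to 11149046 in ESC libraries. Of these, tRNA genes took 80.5% to 89.6% in Fb and 78.7% to 79.9% in ESC libraries. The 5 fibroblast and stroma miRNAs checked, miR-143 among them, summed to 173957 to 281107 CPM (counts relative to 1000000 miRNA reads) in Fb and 174 to 209 CPM in ESC libraries. The 5 epithelial miRNAs, miR-205 among them, summed to 5787 to 12755 CPM in Fb and 54956 to 69134 CPM in ESC libraries, so the labelled cell types matched their markers. The 4 red cell and serum miRNAs were, like the valine tRNAs, higher in Fb libraries in CPM, at 1081 to 20921 in Fb and 195 to 302 in ESC libraries. Nearly all of it came from miR-486, and the 4 together had 205 to 2640 reads in Fb and 289 to 461 reads in ESC libraries. Of that list, the red cell marker miR-451a stood at 36.8, 5.28 and 55.5 CPM in Fb and 0.717, 0.675 and 3.28 CPM in ESC libraries, on 2, 1 and 7 reads in Fb and 1, 1 and 5 reads in ESC libraries. The 4 leukocyte miRNAs summed to 29.0 to 92.0 CPM in Fb and 0.239 to 2.70 CPM in ESC libraries, with miR-142a-3p at 0 in every library. Those sums rest on 5 to 9 reads in Fb and 0 to 4 reads in ESC libraries. The 3 muscle miRNAs were also higher in CPM in Fb libraries, at 438 to 1546 against 123 to 161 in ESC libraries. Their reads were fewer in Fb libraries, at 66 to 84 against 182 to 245. The liver and serum marker miR-122 was at 0 to 5.28 CPM in Fb and 6.08 to 7.89 CPM in ESC libraries, on 0 to 1 and 9 to 11 reads. The 2 endothelial miRNAs overlapped, at 103 to 313 CPM in Fb and 76.9 to 120 CPM in ESC libraries, on 13 to 29 and 114 to 182 reads. The part of these cells or of serum in the results was not tested.

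Valine tRNAs took a far larger part of the tRNA reads in Fb exosomes than in ESC exosomes. Their reads numbered 1209365, 816775 and 816017 in Fb replicates 1 to 3, against 24228, 48477 and 26705 in ESC replicates 1 to 3. Valine made up 16.9%, 11.7% and 14.0% of tRNA reads in the Fb libraries, and 0.308%, 0.544% and 0.327% in the ESC libraries. Every Fb library lay above every ESC library, and the lowest Fb share was still far from the highest ESC share. Counting error was small beside this spread: exact 95% binomial intervals ran from 11.64% to 11.69% for Fb replicate 2, the lowest Fb library, and from 0.539% to 0.549% for ESC replicate 2, the highest ESC library. Reads carry no molecular identifiers, so such intervals cover counting error only.

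The mean share was 14.2% ± 2.61 in Fb and 0.393% ± 0.131 in ESC exosomes (SD, n = 3 each), a ratio of 36.0. The exact two-sided permutation test gave p = 0.1, below which 3 against 3 libraries cannot go, and 0.1222 after Benjamini-Hochberg adjustment over 22 amino acid groups. Among those groups 77.3% had every Fb library above every ESC library, so the direction is common to most tRNAs. Valine was the third most abundant of 24 amino acid groups in each of the 6 libraries. More valine tRNA per vesicle and more vesicles that carry it cannot be told apart in such bulk preparations.

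The size of the ratio depended on the denominator. Out of all assigned reads valine took 15.1%, 9.40% and 11.8% in Fb, and 0.245%, 0.435% and 0.257% in ESC libraries, a ratio of 38.8. Glycine and glutamate tRNAs are the other large groups, and the valine share shifted strongly when they were set aside. Without glycine tRNAs, valine held 46.8%, 27.7% and 30.9% of the remaining tRNA reads in Fb, and 1.85%, 3.28% and 2.07% in ESC libraries, a ratio of 14.6. Without glycine and glutamate tRNAs it held 90.3%, 67.2% and 76.5% in Fb, and 49.6%, 59.9% and 56.3% in ESC libraries, a ratio of 1.41. Beside the smaller tRNA groups, valine was thus the larger part of the reads in Fb libraries and about as large as all the rest together in ESC libraries, and the groups still did not overlap (exact permutation p = 0.1).

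The CAC anticodon, the reader of the valine codon that ends in G, accounted for most of this. It held 15.6%, 10.4% and 12.8% of tRNA reads in Fb libraries, against 0.289%, 0.501% and 0.308% in ESC libraries. The means were 12.9% ± 2.60 in Fb and 0.366% ± 0.117 in ESC exosomes (SD, n = 3 each), a ratio of 35.3. Among 57 anticodons it ranked 4 in each Fb library and 5 in each ESC library by reads, so its rank moved little.

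The AAC anticodon was lower in level in both groups. It held 1.29%, 1.21% and 1.11% of tRNA reads in Fb libraries, and 0.0170%, 0.0405% and 0.0174% in ESC libraries. Its Fb libraries lay close together, at 1.21% ± 0.0927, while ESC libraries averaged 0.0250% ± 0.0134 (SD, n = 3 each), a ratio of 48.3. Its rank by reads was 5, 8 and 6 in Fb libraries and 11, 9 and 9 in ESC libraries.

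The TAC anticodon was the least abundant of the 3 detected, and the most variable among Fb libraries. It held 0.0137%, 0.0766% and 0.0453% of tRNA reads in Fb libraries, on 982, 5362 and 2649 reads, and 0.00242%, 0.00327% and 0.00207% in ESC libraries. Fb replicate 1 had the most valine reads in all and the fewest TAC reads of the Fb group. The means were 0.0452% ± 0.0314 in Fb and 0.00259% ± 0.000618 in ESC exosomes (SD, n = 3 each), a ratio of 17.5. The single GAC gene had 0 reads in every library, which allows up to 0.419, 0.429 and 0.514 RPM (reads relative to 1000000 tRNA reads) in Fb libraries and 0.382, 0.337 and 0.367 in ESC libraries.

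For CAC, AAC and TAC every Fb library lay above every ESC library, with an exact permutation p of 0.1 each and 0.1205 after adjustment over 47 anticodons. This is the case for 74.5% of the 47 anticodons, so the separation itself does not set valine apart.

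**Figure D1:**
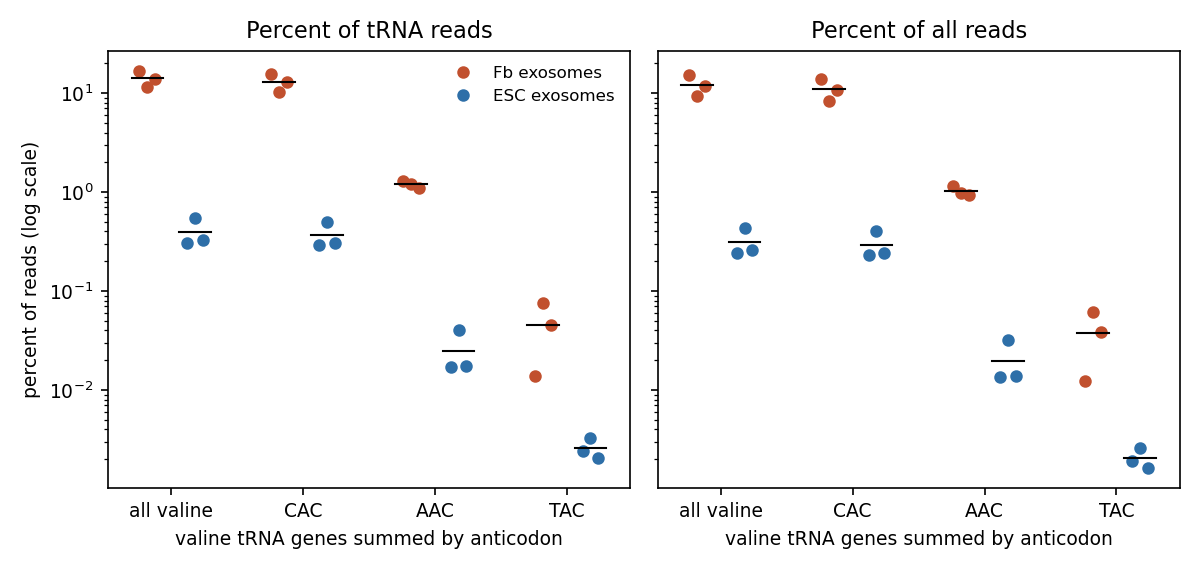
Share of reads of all valine tRNA genes and of each detected anticodon, as percent of tRNA reads (left) and percent of all assigned reads (right), on a log axis. Points are libraries (3 Fb, 3 ESC), lines are group means, and every Fb point lies above every ESC point, with TAC showing the widest spread among Fb libraries.

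To set the valine anticodons against the other tRNAs, reads were summed by anticodon and fitted with tRNA reads alone as library size. AAC had a log2 fold change, Fb over ESC, of 5.59 (SE 0.63; edgeR quasi-likelihood test, adjusted p = 2.16e-06). CAC stood at 5.14 (SE 0.33; edgeR adjusted p = 3.02e-09) and TAC at 4.13 (SE 0.83; edgeR adjusted p = 3.19e-04). Differences between the valine anticodons were not tested. CAC had the smallest p of the 47 anticodons fitted, with a change that ranked 11, behind AAC at 9 and ahead of TAC at 16. Of the 47 anticodons 72.3% were called higher in Fb exosomes and 8.51% lower, with a median log2 fold change of 2.54.

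All 3 calls held when any of the 6 libraries was left out, with log2 fold changes of 4.99 to 5.44 for CAC, 5.38 to 6.13 for AAC and 3.51 to 4.56 for TAC. They depend on the scaling between libraries, however. With trimmed-mean (TMM) factors over the tRNA anticodons the median anticodon moved to a log2 fold change of -0.47, and the valine values to 2.68 for AAC, 2.26 for CAC and 0.75 for TAC. On that scale AAC and CAC were still called higher, and TAC was not (edgeR adjusted p = 0.178).

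**Figure D2:**
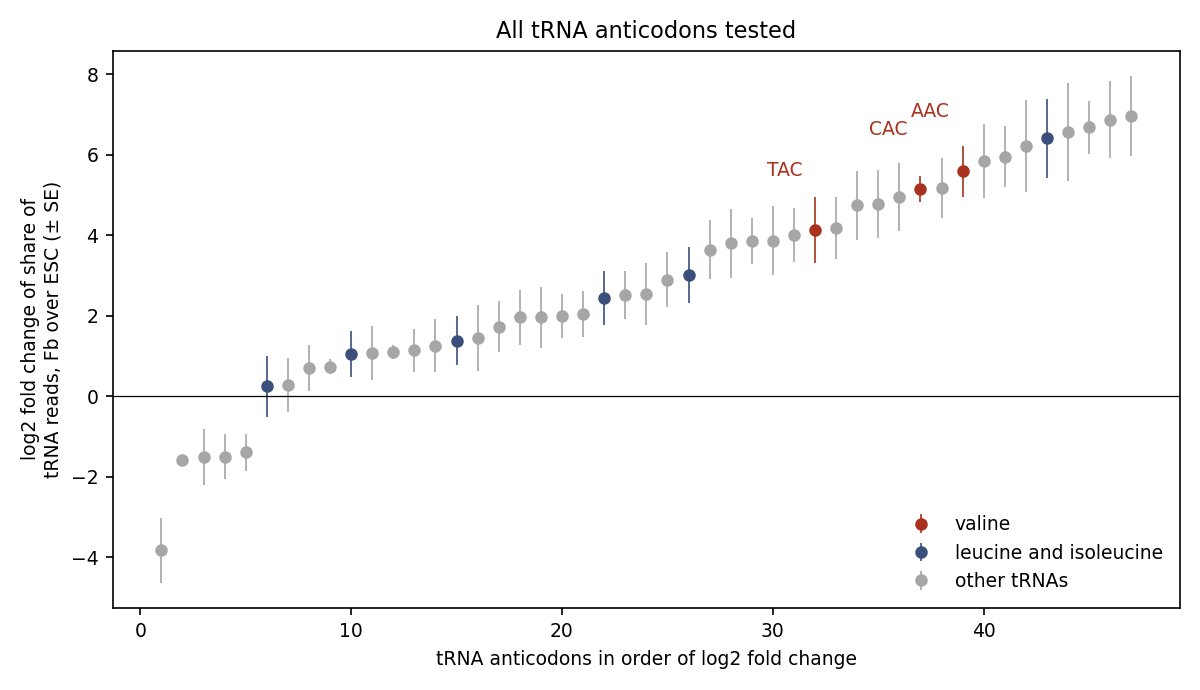
Log2 fold change (Fb over ESC) of the share of tRNA reads for the 47 tRNA anticodons fitted, in rising order, with bars of 1 standard error. Valine CAC (5.14), AAC (5.59) and TAC (4.13) lie in the upper part of the range, CAC with the shortest bar of the 3.

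In the fit of all RNAs, with TMM factors, the valine sum was higher in Fb exosomes by 7.04 on the log2 scale (SE 1.69; edgeR adjusted p = 0.0272). By that fit 6.35% of 2864 RNAs and 59.1% of the 22 amino acid groups were called higher in Fb exosomes. By anticodon, AAC was at 7.58 (SE 1.58; edgeR adjusted p = 0.0163), CAC at 6.98 (SE 1.62; edgeR adjusted p = 0.0228) and TAC at 6.60 (SE 1.57; edgeR adjusted p = 0.0249). There 6.85% of 2889 RNAs and 61.7% of the 47 anticodons were called higher. The TMM factors behind these values spread widely among the Fb libraries, at 2.17, 0.224 and 0.465, against 1.63, 1.65 and 1.65 for the ESC libraries.

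These calls were fragile, as were those of the other tRNAs and of all RNAs in the same fits. Of the 22 amino acid groups 21 were called higher without Fb replicate 1 and 8 without Fb replicate 2. None was called without Fb replicate 3, ESC replicate 1, ESC replicate 2 or ESC replicate 3. By anticodon, 42 of 47 were called higher without Fb replicate 1, 23 of 48 without Fb replicate 2 and 0 without any other library. Of all RNAs in that fit, 396 of 3238 and 137 of 3564 were called higher without Fb replicates 1 and 2 in turn. Without Fb replicate 3 and ESC replicates 1 to 3 it was 0 of 3566, 4 of 3148, 0 of 3102 and 0 of 3090. The valine sum passed without Fb replicate 1 (edgeR adjusted p = 3.66e-05) but not without Fb replicate 2 (0.0769), Fb replicate 3 (0.165), ESC replicate 1 (0.191), ESC replicate 2 (0.146) or ESC replicate 3 (0.175). The CAC call was likewise kept only without Fb replicate 1, and was lost without Fb replicate 2 (edgeR adjusted p = 0.0558), Fb replicate 3 (0.137), ESC replicate 1 (0.160), ESC replicate 2 (0.125) or ESC replicate 3 (0.156). The AAC and TAC calls were kept without Fb replicate 1 or Fb replicate 2. Without Fb replicate 3, ESC replicate 1, ESC replicate 2 or ESC replicate 3 the adjusted p was 0.0742, 0.119, 0.0999 or 0.127 for AAC, and 0.0815, 0.141, 0.129 or 0.148 for TAC (edgeR). With library totals and no factors the log2 fold change of the valine sum was 5.28 (SE 0.33; edgeR adjusted p = 8.64e-08), with 5.69 for AAC, 5.25 for CAC and 4.19 for TAC. That scaling moved the median RNA from -0.07 to -0.83 and turned the split of all calls from 198 higher and 106 lower to 102 higher and 210 lower, while the valine anticodons stayed on the higher side.

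The isodecoders differed widely in level, and nearly all reads came from a few. Of the 16 isodecoders, 12 had a mean of at least 10 reads in a group, AAC-6, CAC-8 and GAC-1 had 0 reads in every library, and CAC-5 had a few. Levels below are in RPM of tRNA reads. Genes of an isodecoder share a mature sequence, and different isodecoders differ by a few bases, so how reads that match several of them were divided affects each value.

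CAC-2, an isodecoder of 5 genes, was by far the most abundant. It had 134714, 81841 and 105045 RPM in Fb libraries and 2417, 4075 and 2577 in ESC libraries, a ratio of 35.5. CAC-3, of 1 gene, had 11792, 14281 and 15063 in Fb libraries and 203, 522 and 230 in ESC libraries, and its ratio of 43.1 was the highest among the CAC isodecoders. CAC-1 stood at 8107, 6939 and 7165 in Fb libraries and 233, 355 and 230 in ESC libraries, a ratio of 27.1. In each of these, ESC replicate 2 was the highest of its group.

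The other CAC isodecoders were rarer. CAC-4 had 676, 401 and 496 RPM in Fb libraries and 9.93, 16.3 and 13.4 in ESC libraries, a ratio of 39.6. CAC-6 had 482, 291 and 379 in Fb libraries and 24.4, 35.4 and 24.4 in ESC libraries, and its ratio of 13.7 was the lowest of the named CAC isodecoders. CAC-7 rested on 58.4, 46.1 and 33 estimated reads in Fb libraries and 3.00, 3.92 and 0.333 in ESC libraries. Its rate ratio per tRNA read was 24.4, with a 95% counting interval of 11.5 to 61.8.

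CAC-5 went the other way, at a level too low for the filter of the fits. It had 2.89, 1.44 and 2.49 estimated reads in Fb libraries and 10.3, 8.53 and 8.76 in ESC libraries, and is named here after its values were seen. Its rate ratio was 0.267, with a 95% counting interval of 0.0904 to 0.657. Every Fb library lay below every ESC library, as was so for 7.05% of the 156 tRNA isodecoders with a mean of at least 10 reads in a group. Without the filter its log2 fold change was -1.03 (SE 0.81; edgeR adjusted p = 0.664), so it was not called.

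Among the AAC isodecoders, AAC-1 had almost no estimated reads in ESC exosomes. It had 43183, 35974 and 22732 estimated reads in Fb libraries and 3.02, 2.01 and 0.0149 in ESC libraries. In RPM this is 6029, 5139 and 3891 in Fb libraries and 0.384, 0.226 and 0.00183 in ESC libraries, where each library was at about 3 reads or lower. Summed and rounded over libraries, 101888 reads in Fb stood against 5 in ESC, a rate ratio of 25391 with a 95% counting interval of 10880 to 78201. That interval leaves out variation among libraries and the division of reads that match several isodecoders, which was not tested. Its fitted log2 fold change depends on the small count added before logs and is not given.

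The other AAC isodecoders with many reads were present in both groups. AAC-5 had 4983, 3921 and 4495 RPM in Fb libraries and 99.6, 218 and 109 in ESC libraries, a ratio of 31.4. AAC-4 had 1910, 3067 and 2672 in Fb libraries and 68.5, 185 and 64.5 in ESC libraries, a ratio of 24.1. In the Fb libraries AAC-1 was thus of the same order as AAC-4 and AAC-5, while in the ESC libraries it was far below them.

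AAC-2 and AAC-3 were rare. AAC-2 had 5.62, 11.2 and 17.5 RPM in Fb libraries and 0.808, 1.17 and 0.619 in ESC libraries, a ratio of 13.2. AAC-3 had 2.60, 5.54 and 8.75 in Fb libraries and 0.406, 0.583 and 0.310 in ESC libraries, a ratio of 13. The genes AAC-2-2 and AAC-3-1 had the same fitted values, 5.72 on the log2 scale (SE 1.07, edgeR). Whether AAC-2 and AAC-3 hold divided parts of the same reads was not tested, so they are not separate results. TAC-1, the only TAC isodecoder, had 137, 766 and 453 in Fb libraries and 24.2, 32.7 and 20.7 in ESC libraries.

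For each of the 12 named isodecoders every Fb library lay above every ESC library in its share of tRNA reads, where 55.8% of 156 tRNA isodecoders did so. When all RNAs were fitted with tRNAs summed by isodecoder, the 12 passed the filter on low counts and were called higher in Fb exosomes, beside 57.8% of 135 tRNA isodecoders and 8.36% of all 2977 RNAs. AAC-1, AAC-2, AAC-3 and CAC-7, with a few reads at most in each ESC library, passed that filter through their Fb reads, so the count of calls is a description. That count also takes AAC-2 and AAC-3 apart. On the log2 scale CAC-3 stood at 7.46 (SE 1.55; edgeR adjusted p = 0.0146), CAC-2 at 6.91 (SE 1.46; edgeR adjusted p = 0.0149) and CAC-6 at 5.54 (SE 1.18; edgeR adjusted p = 0.0149). The number called was 12 without Fb replicate 1 or Fb replicate 2, and 5 without Fb replicate 3 (edgeR). It was 0 without ESC replicate 1, ESC replicate 2 or ESC replicate 3. All 12 had an unadjusted p under 0.05 in each of these fits. Of all tRNA isodecoders fitted, 112 of 152, 68 of 147 and 22 of 148 were called higher without Fb replicates 1 to 3 in turn. Without ESC replicates 1 to 3 in turn it was 1 of 146, 1 of 144 and 0 of 153. Of all RNAs fitted, 456 of 3343, 181 of 3663 and 68 of 3666 were called higher without Fb replicates 1 to 3. Without ESC replicates 1 to 3 it was 1 of 3245, 1 of 3197 and 0 of 3195. An unadjusted p under 0.05, in either direction, was found for 91 to 125 tRNA isodecoders per fit (edgeR). DESeq2, run on the 6 libraries together, called the 12 higher, beside 100 of 135 tRNA isodecoders and 370 of 2977 RNAs.

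**Figure D3:**
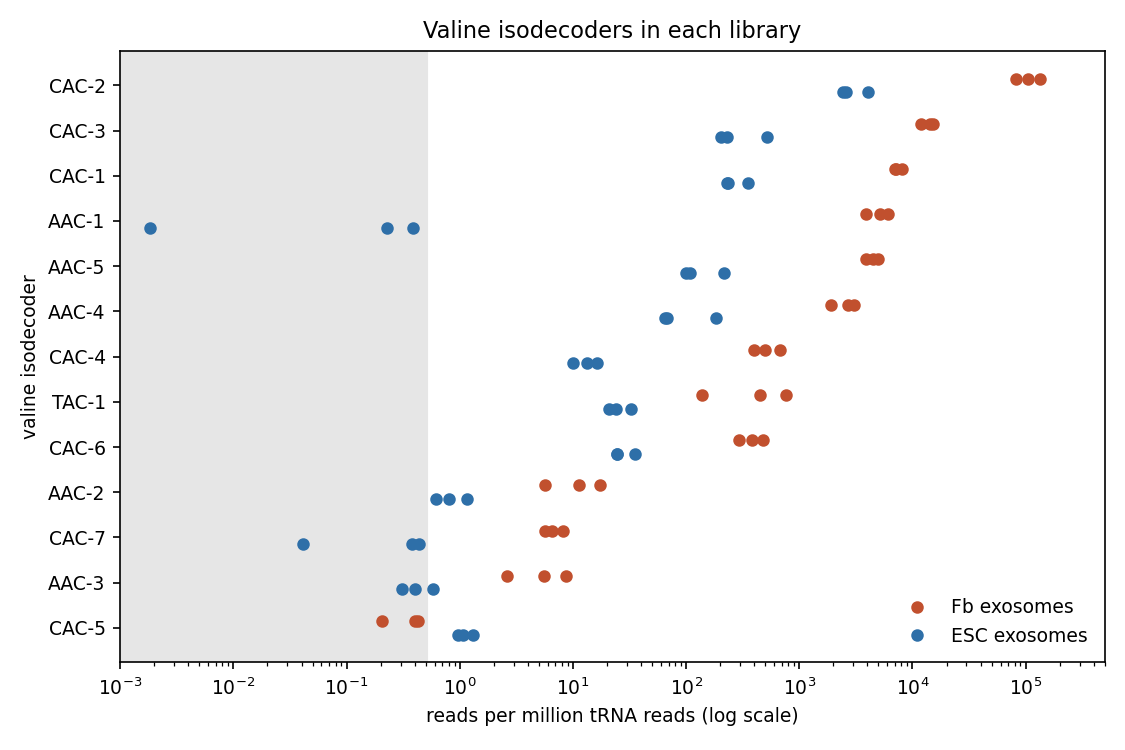
Level of each valine isodecoder with reads, in RPM of tRNA reads on a log axis, with 1 point per library (Fb above, ESC below in each row). Grey marks levels under 0.514, the limit of 3 reads in the smallest library. AAC-1 spans 3891 to 6029 in Fb libraries and lies in the grey zone in all ESC libraries, and CAC-5 has its Fb points left of its ESC points.

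The make-up of the valine reads was compared apart from their total. CAC held 92.3%, 88.9% and 91.7% of valine reads in Fb libraries and 93.7%, 92.0% and 94.0% in ESC libraries, and the groups overlapped (exact permutation p = 0.2). AAC held 7.66%, 10.4% and 7.93% in Fb libraries and 5.50%, 7.44% and 5.33% in ESC libraries, with every Fb library above every ESC library (exact permutation p = 0.1). TAC held 0.0812%, 0.656% and 0.325% in Fb libraries and 0.786%, 0.601% and 0.633% in ESC libraries, which overlapped (exact permutation p = 0.3).

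The higher AAC share rested on AAC-1. This isodecoder made up 3.57%, 4.40% and 2.79% of valine reads in Fb libraries and 0.0125%, 0.00415% and 5.59e-05% in ESC libraries. With AAC-1 left out, AAC held 4.24%, 6.28% and 5.30% of the remaining valine reads in Fb libraries and 5.49%, 7.43% and 5.33% in ESC libraries. The difference in means then changed sign and the groups overlapped (exact permutation p = 0.4). AAC-1 was left out after its values were seen, so this comparison is a description. The ratio of the AAC share of tRNA reads was 28.2 without AAC-1, against 48.3 with it, so its excess over the CAC ratio also rested on that isodecoder.

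Within the AAC reads AAC-1 took 46.6%, 42.3% and 35.1% in Fb libraries and 0.226%, 0.0558% and 0.00105% in ESC libraries. AAC-5 took 38.5%, 32.3% and 40.6% in Fb libraries and 58.7%, 53.8% and 62.5% in ESC libraries. AAC-4 took 14.8%, 25.3% and 24.1% in Fb libraries and 40.4%, 45.7% and 37.0% in ESC libraries. AAC-4 and AAC-5 thus had lower shares of the AAC reads in every Fb library than in any ESC library. These are shares of 1 total and do not move independently.

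The main CAC isodecoder kept its place in both groups. CAC-2 made up 79.8%, 70.1% and 75.2% of valine reads in Fb libraries and 78.4%, 74.9% and 78.8% in ESC libraries, and the groups overlapped (exact permutation p = 0.7). CAC-3 made up 6.98%, 12.2% and 10.8% in Fb libraries and 6.59%, 9.59% and 7.02% in ESC libraries, which also overlapped (exact permutation p = 0.3). CAC-1 was lower in every Fb library, at 4.80%, 5.95% and 5.13%, against 7.57%, 6.53% and 7.04% in ESC libraries (exact permutation p = 0.1). CAC-6 was lower in every Fb library too, at 0.285%, 0.249% and 0.271%, against 0.790%, 0.65% and 0.747% in ESC libraries (exact permutation p = 0.1). Of the 12 named isodecoders 1 had a higher share of valine reads in every Fb library (AAC-1), 4 a lower share (CAC-1, CAC-6, AAC-2 and AAC-3) and 7 overlapped.

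**Figure D4:**
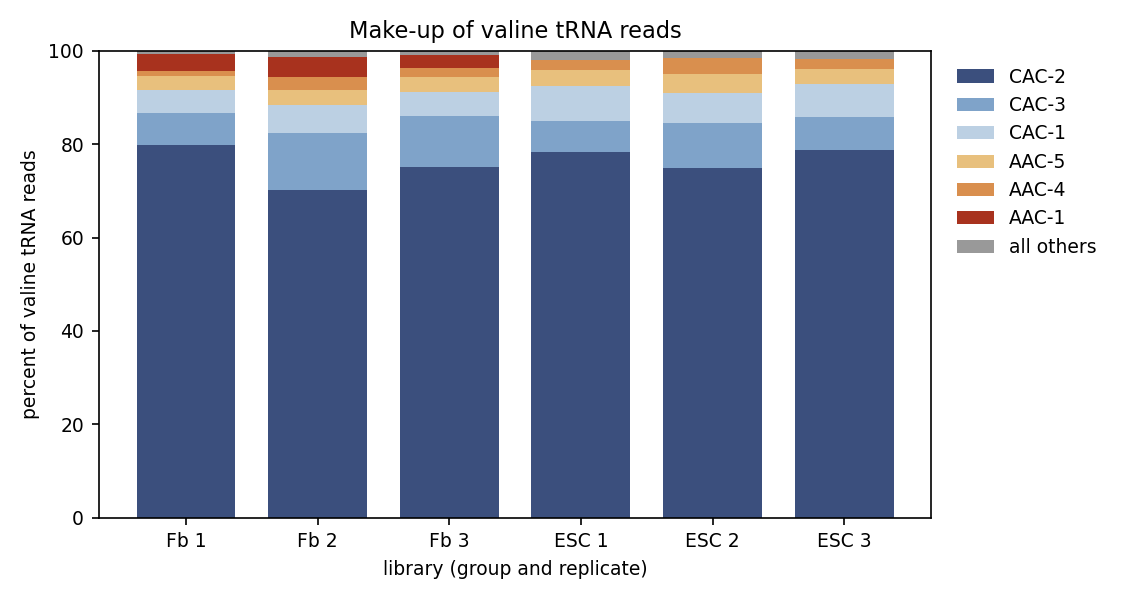
Make-up of the valine tRNA reads in each library, as percent of valine reads by isodecoder. CAC-2 holds 70.1% to 79.8% in Fb and 74.9% to 78.8% in ESC libraries, and AAC-1 is visible in the 3 Fb libraries, at 2.79% to 4.40%, and not in the ESC libraries.

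Single genes were read with caution, since copies of an isodecoder cannot be told apart by their mature sequence. Of the 24 genes, 21 had some reads in the tables and 12 had at least 1 read in every library. For CAC-2 the division over its copies differed between libraries. The copy CAC-2-2 took 80.3%, 74.7% and 68.0% of CAC-2 reads in Fb libraries, against 35.7% in ESC replicate 3 and nearly 0 in ESC replicates 1 and 2. The copy CAC-2-1 took 1.73%, 6.59% and 1.75% in Fb libraries, against 100%, 100% and 42.0% in ESC libraries.

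The remaining CAC-2 copies also appeared in some libraries and not in others. CAC-2-4 took 17.9%, 15.5% and 26.1% in Fb libraries, against 22.3% in ESC replicate 3 and nearly 0 in the other ESC libraries. CAC-2-3 took 3.14% in Fb replicate 2 alone, and CAC-2-5 took 4.16% in Fb replicate 3 and almost nothing elsewhere. The 2 copies of AAC-2 had nearly equal reads in each library, and TAC-1-1 took at least 99.4% of the TAC-1 reads in every library.

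By single gene, 15 valine genes passed the filter and 13 were called higher in Fb exosomes, beside 52.2% of 157 tRNA genes and 8.17% of all 2999 RNAs. AAC-1-1, AAC-2-1, AAC-2-2, AAC-3-1 and CAC-7-1 passed the filter through their Fb reads. So did CAC-2-2 and CAC-2-4, with nearly 0 reads in ESC replicates 1 and 2. This count, and the values of CAC-2-2 and CAC-2-4 below, are thus descriptions. The count also takes AAC-2-2 and AAC-3-1 apart, whose fitted values were the same. CAC-2-2, the copy with most reads in Fb libraries, was at 9.77 on the log2 scale (SE 2.15; edgeR adjusted p = 0.0193). Its call was lost in each of the 6 fits with a library left out (edgeR adjusted p = 0.0673 to 0.258) and with library totals alone (edgeR adjusted p = 0.0940). The 2 that did not pass were CAC-2-1, the copy with most reads in ESC libraries, at 2.64 (SE 1.49; edgeR adjusted p = 0.352), and CAC-2-4, at 8.55 (SE 3.48; edgeR adjusted p = 0.175). The number called was 13 without Fb replicate 1 and 11 without Fb replicate 2 (edgeR). It was 0 without Fb replicate 3, ESC replicate 1, ESC replicate 2 or ESC replicate 3, where 13, 13, 13 and 14 valine genes had an unadjusted p under 0.05. Of all tRNA genes fitted, 123 of 214 were called higher without Fb replicate 1 and 69 of 205 without Fb replicate 2. None was called without any other library, where 116 to 119 tRNA genes had an unadjusted p under 0.05, in either direction (edgeR). Of all RNAs fitted, 462 of 3405 and 178 of 3721 were called higher without Fb replicates 1 and 2 in turn, and 0 without any other library. DESeq2 called 14 of the 15 higher with all libraries, beside 106 of 157 tRNA genes and 373 of 2999 RNAs.

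**Figure D5:**
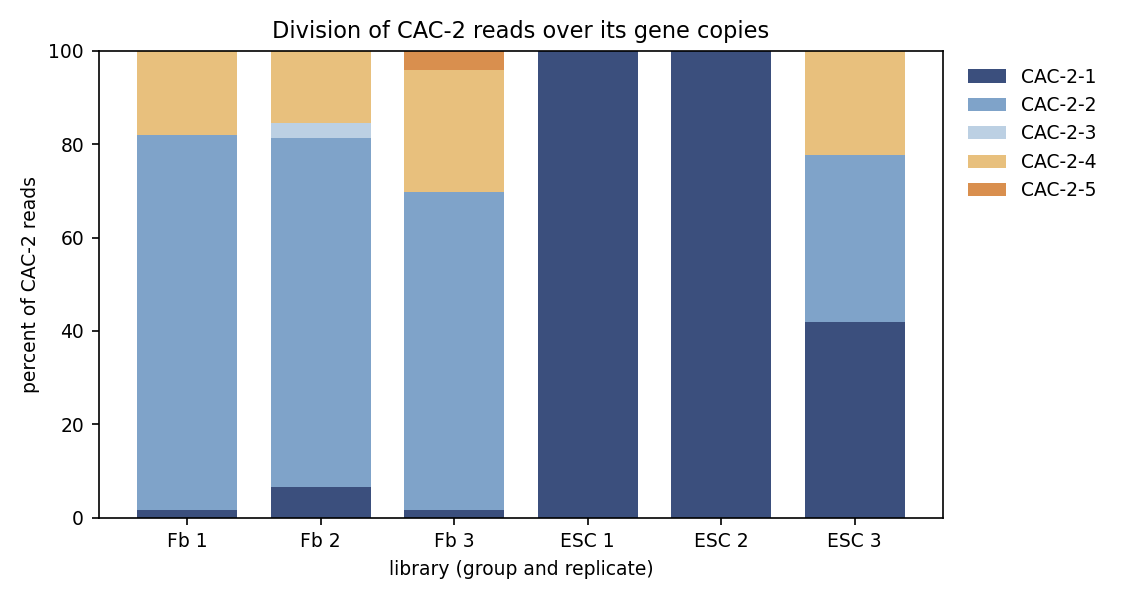
Division of CAC-2 reads over its 5 gene copies in each library, as percent of CAC-2 reads. CAC-2-2 leads in the 3 Fb libraries at 68.0% to 80.3%, CAC-2-1 takes practically all reads in ESC replicates 1 and 2, and ESC replicate 3 is divided over 3 copies.

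Leucine and isoleucine are, with valine, the branched-chain amino acids, and their tRNAs were described beside the valine tRNAs. Fitted with tRNA reads alone, 4 of the 6 leucine and isoleucine anticodons were called higher in Fb exosomes, none was lower, beside 72.3% called higher of all 47. Their median log2 fold change was 1.91, against 5.14 for the 3 valine anticodons and 2.54 for all 47. Leucine TAG was at 6.41 (SE 0.98; edgeR adjusted p = 3.37e-05), above each valine anticodon, leucine CAG at 3.02 (SE 0.69; edgeR adjusted p = 9.73e-04) and leucine AAG at 2.43 (SE 0.67; edgeR adjusted p = 0.00352). Isoleucine AAT was at 1.38 (SE 0.61; edgeR adjusted p = 0.0463). Leucine CAA, at 1.06 (SE 0.57; edgeR adjusted p = 0.0917), and isoleucine TAT, at 0.25 (SE 0.75; edgeR adjusted p = 0.747), were not called. Among all RNAs, 3 of the 6 were called higher, the leucine anticodons AAG, CAG and TAG, beside 61.7% of all 47, with a median of 3.77 for the 6, beside 6.98 for valine and 5.06 for all 47.

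By distance in log2 fold change in the fit of all RNAs, over the same 6 libraries, the anticodons nearest to valine AAC were arginine TCG at 7.53, threonine AGT at 7.44 and threonine CGT at 7.31. For valine CAC they were arginine ACG at 7.23 and the same threonine anticodons. For valine TAC they were asparagine GTT at 6.46, glutamine CTG at 6.44 and arginine CCT at 6.29. The neighbours of AAC depended on the fit: with tRNA reads alone they were tryptophan CCA at 5.84, arginine CCG at 5.95 and arginine TCG at 5.18. For CAC they were then arginine TCG, threonine AGT at 4.96 and threonine CGT at 4.77, and for TAC the same anticodons as before.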

How the data were processed

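The authors deposited an estimated count of reads per annotated non-coding RNA for each of 6 libraries. FastQC, cutadapt and GRCm38 are named in the submitters' processing notes. Not given in the sources used here are the aligner, the counter, strand use and the division of multiply matching reads. Of the nonzero estimated counts in the deposited tables, 82.6% to 92.2% per library were fractional.

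Rows were summed by amino acid, anticodon and isodecoder and rounded after summing. Shares were compared by the exact permutation test, two-sided, in scipy 1.17.1. Count fits used the quasi-likelihood test of edgeR 4.0.16 (R 4.3.3) with TMM scaling and group alone in the design, after filterByExpr (count 10, total 15). Calls were made at an edgeR adjusted p of 0.05 (Benjamini-Hochberg, over all rows fitted). A second fit used, for tRNA anticodons alone, tRNA reads as library size and no factors. The standard error is the log2 fold change over the root of the F statistic. DESeq2 1.42.0, other scalings, no filter, a replicate term and leaving out each library were alternatives. Fits were also run on simulated counts, with the same spread for every row and without the scaling differences of these libraries. That run therefore does not test the fits under the TMM factors found here.

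The text names every valine anticodon, isodecoders with a mean of at least 10 reads in a group, the leucine and isoleucine anticodons and the 3 nearest anticodons. Of the counted genes, only genes of AAC-1, AAC-2, AAC-3, CAC-2, CAC-7 and TAC-1 are named singly. Members and lists were chosen with earlier results of these data known.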

Additional observations from a re-analysis of the deposited data

How the results depend on the processing

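Shares kept their direction in every alternative run, except as given here. Ratios of the valine share ranged from 32.53 to 44.61 (of tRNA reads) and from 33.93 to 48.21 (of all reads) with a library left out, and the ratio per read that is not tRNA was 59.2. Leaving out AAC-1, chosen after seeing the data, turned the Fb minus ESC difference in the share of valine reads to -0.813 percentage points for AAC (2.58 with it) and to 1.12 for CAC (-2.26 with it). With a library left out these differences were 1.71 to 3.25 for AAC, -2.90 to -1.24 for CAC and -0.47 to -0.18 for TAC.

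In the fit of all RNAs, log2 fold changes with a library left out were 6.42 to 7.5 for the valine sum, 6.71 to 8.10 for AAC, 6.38 to 7.43 for CAC and 5.12 to 7.16 for TAC. Numbers called higher were 0 to 12 valine isodecoders and 0 to 13 valine genes, beside 0 to 112 tRNA isodecoders and 0 to 123 tRNA genes. Fitted among tRNA anticodons alone, log2 fold changes were 5.38 to 6.13 for AAC, 4.99 to 5.44 for CAC and 3.51 to 4.56 for TAC. With TMM factors there TAC fell to 0.75 (edgeR adjusted p = 0.178) and calls over all 47 anticodons to 12 higher and 16 lower, against 34 and 4. The cause of these losses was not tested.

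Replicate numbers did not pair the libraries: same-numbered Fb and ESC libraries had correlations of -0.064, 0.045 and 0.003 over 2889 RNAs, and Fb replicate 1 correlated best with ESC replicate 3. With a replicate block the fit of all RNAs gave 6.76 for the valine sum (edgeR adjusted p = 0.112), 7.26 for AAC (0.0681), 6.71 for CAC (0.0914) and 5.61 for TAC (0.166). There 0 of 22 amino acid groups and 2 of 47 anticodons were called higher, beside 74 of 2864 and 71 of 2889 RNAs in those fits. The block called 7 valine isodecoders and 6 valine genes higher, beside 34 of 135 tRNA isodecoders and 38 of 157 tRNA genes. Over all RNAs of those fits it called 119 of 2977 and 110 of 2999 higher. In the fit of tRNA anticodons alone the block gave 5.72 for AAC, 5.17 for CAC and 3.86 for TAC and no valine call was lost. For single isodecoders, 43 results lost their call with a library left out and 5 under other alternatives, all in the same direction. Depth limits CAC-5, CAC-7, AAC-2, AAC-3 and the ESC level of AAC-1, which rest on a few reads in ESC libraries.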

Other observations

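The mitochondrial valine tRNA, mt-Tv, which is no member of the nuclear genes above, had 4, 6 and 2 reads in Fb libraries and 7, 1 and 5 reads in ESC libraries, which overlapped (exact permutation p = 1.0).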
